A study of Canis lupus familiaris with 36 samples.

Results

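The miRNAs cfa-miR-126, cfa-miR-221 and cfa-miR-222 were examined in canine cardiac hemangiosarcoma (HSA), a malignant tumor of blood vessel endothelium. They were picked by name, by a rule that uses no measured value but with earlier results of these data known, and are 3 of the 453 mature miRNAs listed. Each has a single precursor in the table. Small RNA had been sequenced from formalin-fixed, paraffin-embedded (FFPE) heart tissue of 6 dogs with cardiac HSA and 6 control dogs whose death was not due to a tumor, 1 library per dog. Both groups came from the archive of a diagnostic laboratory, and no genotype is given. By the study's own account the dogs with HSA were older than the controls and earlier chemotherapy was no reason to leave a dog out. Neither age nor treatment is in the fits, so their part cannot be told apart from that of the tumor. How much of each tumor section was tumor is not given in the sources used here. Titles of the deposited samples name these libraries cancer heart and healthy heart, whereas the treatment field gives each of the 12 the opposite condition. The titles were followed, and every direction below depends on that choice. The muscle miRNAs, given per library below, took at least 20.2% of the counts, summed over 1 row per miRNA, in all 6 libraries titled as healthy. They took less than that in 4 of the 6 titled as cancer. The muscle sum holds both miR-133a and miR-133c, which had nearly the same counts. The 18 splenic HSA and 6 splenic control samples of the series were not analysed here.

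MiR-126 is the miRNA most closely tied to endothelial cells. It is processed from the transcript of EGFL7, a gene for a protein that endothelial cells secrete, and it sustains VEGF signaling by repressing SPRED1 and PIK3R2, which restrain it. MiR-221 and miR-222 share a seed and are processed from a common primary transcript. They repress the cell-cycle inhibitor CDKN1B, which links them to growth in many tumors, and in cultured endothelial cells they also repress KIT, the receptor of stem cell factor, and slow vessel formation. In vascular smooth muscle they favor proliferation. The gene names of RefSeq (assembly UU_Cfam_GSD_1.0, not the build of the files, so that no positions are given) place the genes alike. MIR126 lies inside EGFL7, and MIR221 and MIR222 are adjacent miRNA genes inside the same long non-coding RNA gene.

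Levels are given as CPM, counts scaled to a common library total, after edgeR's TMM scaling, which assumes that most miRNAs keep their level. The thresholds of the study were used, so that a called miRNA had a log2 fold change of at least 1 in either direction and a p under 0.01 in edgeR's quasi-likelihood test after Benjamini-Hochberg adjustment. The filter on low counts kept 225 mature miRNAs, all 3 members among them. Of these, 42 (18.7%) were called higher in HSA and 16 lower. With scaling by library size alone, the split was 68 higher and 5 lower. Over all tested miRNAs, log2 fold changes had a median of 0.34 under TMM (0.26 to 0.97 over the settings), so the position of a member relative to this median is given as well.

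RNA came from tissue sections and not from sorted cells, so the cell content of the libraries was described first. Total counts, after rows of the same miRNA with identical counts were merged, were 6999830 to 11668822 in the control libraries and 2018959 to 8999025 in the HSA libraries. Percentages below are of the counts over 1 row per mature miRNA, the row with the highest count. This base is smaller than the total above, so each percentage is higher than it would be of that total. All 8 miRNAs of a cardiac and skeletal muscle list were detected. Together they took 20.2% to 27.9% of the counts in the control libraries and 0.122% to 27.4% in the HSA libraries, with a median of 9.89% in HSA. MiR-133a and miR-133c had nearly the same counts, 357526 to 830808 and 357526 to 830807 in control and 817 to 609368 for both in HSA. Both enter the muscle sum, so every muscle percentage given is higher than it would be with only 1 of them. HSA replicates 1 and 6, at 25.6% and 27.4%, lay within the control range, whereas replicates 2, 3, 4 and 5 had 5.38%, 0.122%, 5.78% and 14.0%. The cardiac marker miR-208b had 0 counts in the lowest HSA library. The 4 white blood cell miRNAs (miR-142, miR-150, miR-155 and miR-223) took 0.0778% to 0.877% in HSA and 0.0292% to 0.0441% in control, and all 4 were called higher. The liver miRNA miR-122 made up 26.5% of HSA replicate 3 and at most 0.0595% of any other library. The smooth muscle miRNAs miR-143 and miR-145 together had 6.73% to 18.6% in HSA and 6.37% to 9.05% in control, and neither was called. MiR-214, the fibroblast miRNA found in the table, was not called either, with a log2 fold change of -0.13 and an adjusted p of 0.668 in edgeR. Of the 7 epithelial miRNAs, 3 were tested and 2 called higher. Of the 4 red cell miRNAs, miR-144 was called higher and miR-486-3p lower.

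No difference was detected for the endothelial miR-126, whereas both growth-linked miRNAs were higher in HSA. The estimate for miR-126 was 0.732-fold of control, with a 95% interval from 0.419-fold to 1.28-fold. MiR-221 was 2.16-fold higher (95% interval 1.5-fold to 3.11-fold) and miR-222 was 1.94-fold higher (95% interval 1.45-fold to 2.59-fold). Of the 3 members only miR-221 met both thresholds in this fit, beside the 18.7% of tested miRNAs called higher. MiR-222 had the smaller adjusted p, 0.00271 against 0.00384 for miR-221, and missed the call because its log2 fold change of 0.95 was below 1. In bulk tissue, fewer cells of a type and less of a miRNA per cell cannot be told apart.

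**Figure D1:**
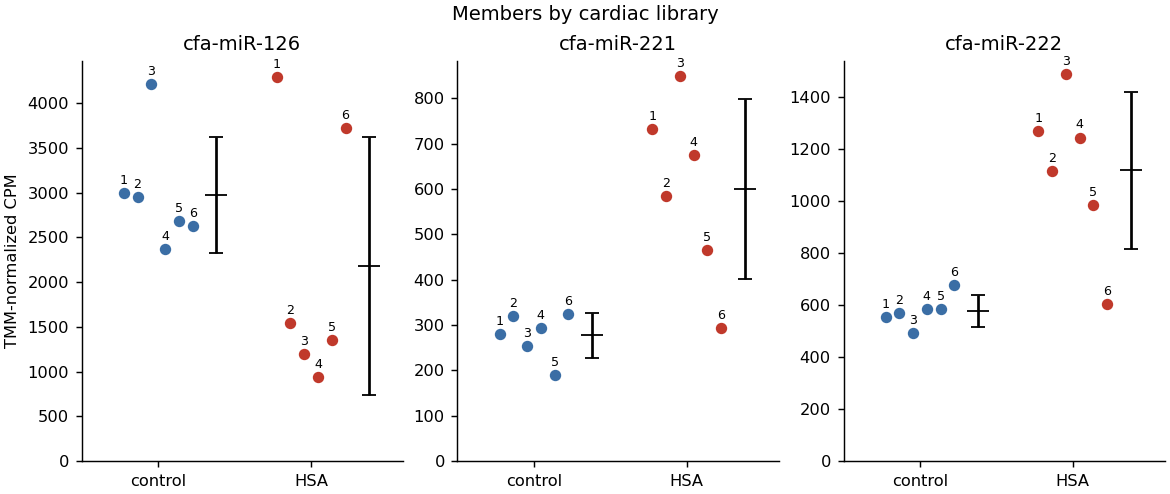
TMM-normalized CPM of each member (vertical axis, from 0) in the 6 control and 6 HSA libraries, with the replicate number above each point and the mean ± SD (n = 6) beside each group. The 4 HSA libraries with low miR-126 lie between 944 and 1547 CPM, under all controls, and HSA replicate 6 lies among the controls for miR-221.

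For cfa-miR-126, control replicates 1 to 6 had 2993, 2948, 4213, 2371, 2681 and 2626 CPM. HSA replicates 1 to 6 had 4295, 1547, 1196, 944, 1358 and 3719 CPM. The HSA libraries thus lay on both sides of the controls, since replicates 2 to 5 were below every control library and replicate 1 was above every one. A share of 28.4% of the tested miRNAs had 4 or more HSA libraries below all controls, so this was a common pattern in these libraries. The split depended on the scaling. In the deposited CPM, which have no TMM factor, HSA replicate 2 had 2849, inside the control range of 1783 to 2920. HSA replicate 6 had 3041 there, above that range. The mean was 2176 ± 1443 CPM in HSA (SD, n = 6), with a median of 1452, and 2972 ± 649 CPM in control (SD, n = 6), with a median of 2815. On the log2 scale this was a fold change of -0.45 with a standard error of 0.37 (adjusted p = 0.328 in edgeR), or -0.79 relative to the median of all tested miRNAs. The spread among dogs was wide in HSA, with a coefficient of variation of 66.3%, against 21.8% in control.

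The direction of miR-126 depended on the scaling. Its log2 fold change was 0.064 with scaling by size only, -0.025 with scaling to miR-8859a and miR-8859b, and -0.054 with limma on the deposited CPM. MiR-8859a and miR-8859b were 2 of the candidate qPCR normalizers that the study had picked for stable levels in its sequencing data. Their counts were summed, and miR-8859a made up most of the sum, with a mean of 1330 CPM in control beside 52.9 for miR-8859b. The candidate miR-8884 was left out of this scaling, and its log2 fold change was 0.52 (adjusted p = 0.134 in edgeR). Relative to the median of all tested miRNAs, the log2 fold change of miR-126 was negative in all 13 alternative settings that kept the 12 libraries and had no replicate term, from -0.73 to -1.30. The adjusted p of miR-126 stayed between 0.272 and 0.969 over these settings.

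By TMM-normalized CPM, miR-126 moved with the muscle miRNAs in the HSA libraries. HSA replicates 1 and 6, with the muscle share of a control heart, had 4295 and 3719 CPM, and the 4 libraries with a muscle share of 14.0% or less had 944 to 1547 CPM. In the deposited CPM this was less clear. HSA replicate 2, with 5.38% muscle miRNAs, had 2849 there, near the 3041 of replicate 6. The part of muscle tissue in this result was not tested. Leaving the muscle miRNAs out of the scaling moved miR-126 little under either scaling. Its log2 fold change went from -0.45 to -0.51 under TMM (adjusted p = 0.274 in edgeR) and from 0.064 to -0.041 by library size (adjusted p = 0.944 in edgeR), a setting added after seeing the data.

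**Figure D2:**
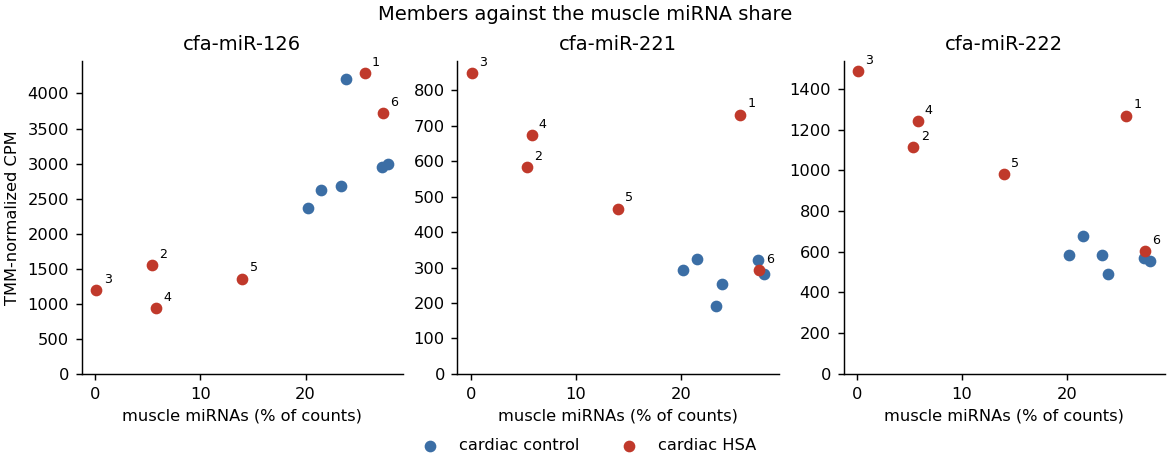
TMM-normalized CPM of each member (vertical axis, from 0) against the percent of counts taken by the 8 muscle miRNAs. The percent is of the counts over 1 row per mature miRNA. Control libraries are blue and HSA libraries are red, with replicate numbers. Both miR-133a and miR-133c, with nearly the same counts, are in this percent. HSA replicate 1, with 25.6% muscle miRNAs, has 731 CPM of miR-221, and HSA replicate 6, with 27.4%, has 293 CPM.

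For cfa-miR-221, control replicates 1 to 6 had 281, 321, 254, 294, 190 and 324 CPM, and HSA replicates 1 to 6 had 731, 584, 849, 674, 466 and 293 CPM. The first 5 HSA libraries exceeded every control and the sixth fell inside the control range. The mean was 600 ± 199 CPM in HSA (SD, n = 6) and 277 ± 49.9 CPM in control (SD, n = 6). The log2 fold change was 1.11 with a standard error of 0.24 (adjusted p = 0.00384 in edgeR). The difference relative to the median of all tested miRNAs was 0.77 on the log2 scale. Over the alternative settings it ran from 0.22 with DESeq2 and 0.25 with no filter on low counts to 0.78. The call held in all 13 alternative settings that kept every library and had no replicate term, with log2 fold changes from 1.02 to 1.71 and adjusted p from 0.0002 to 0.00604 in edgeR, DESeq2 or limma. It was less firm against the loss of 1 dog, and 7 of the 12 fits without 1 library lost it. Without HSA replicate 2 or 3 the log2 fold change was 0.998 or 0.99. Without HSA replicate 1 or 4 it was 0.77 or 0.81, and the adjusted p was also over the threshold, at 0.0245 and 0.026. Without control replicate 1, 4 or 5 the fold stayed over the threshold and the adjusted p was 0.0109, 0.0104 or 0.0123.

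For cfa-miR-222, control replicates 1 to 6 had 555, 568, 490, 582, 584 and 678 CPM, and HSA replicates 1 to 6 had 1270, 1114, 1487, 1243, 983 and 603 CPM. HSA replicate 6 was again the single tumor library that did not exceed all controls. The mean was 1117 ± 303 CPM in HSA (SD, n = 6) and 576 ± 60.5 CPM in control (SD, n = 6). On the log2 scale the fold change was 0.95 with a standard error of 0.19 (adjusted p = 0.00271 in edgeR), or 0.61 relative to the median of all tested miRNAs. Over the alternative settings this relative value ran from 0.057 with DESeq2 and 0.093 with no filter on low counts to 0.62. Higher levels at an adjusted p under 0.01, with no condition on fold, were found for 2 of the 3 members and for 19.6% of all tested miRNAs. At least 5 HSA libraries above all controls were likewise seen for these 2 members and for 22.7% of tested miRNAs.

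The adjusted p of miR-222 was under 0.01 in the same 13 alternative settings. Its fold passed the threshold in 5 of them, with log2 fold changes of 1.56 by library size only, 1.52 with limma, 1.33 by library size without the muscle miRNAs, 1.24 with miR-8859a and miR-8859b and 1.0003 with a filter at a mean of 10 CPM. It also passed without HSA replicate 6, at 1.08 (adjusted p = 0.000246 in edgeR). Without HSA replicate 1 or 4, the adjusted p rose to 0.0235 or 0.026, with log2 fold changes of 0.63 and 0.65.

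**Figure D3:**
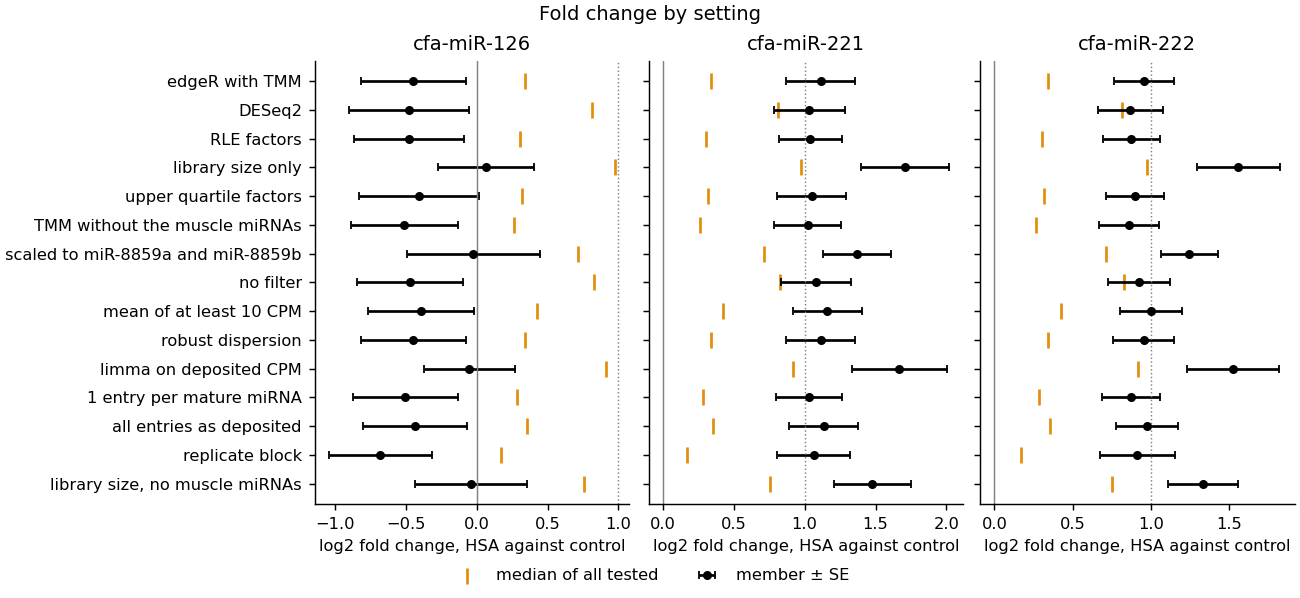
Log2 fold change of each member, HSA against control (horizontal axis), under each setting that kept all 12 libraries (black, ± standard error), with the median of all tested miRNAs under the same setting (orange). Dotted lines mark a log2 fold change of 1. MiR-126 runs from -0.68 to 0.064, miR-221 from 1.02 to 1.71 and miR-222 from 0.86 to 1.56.

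**Figure D4:**
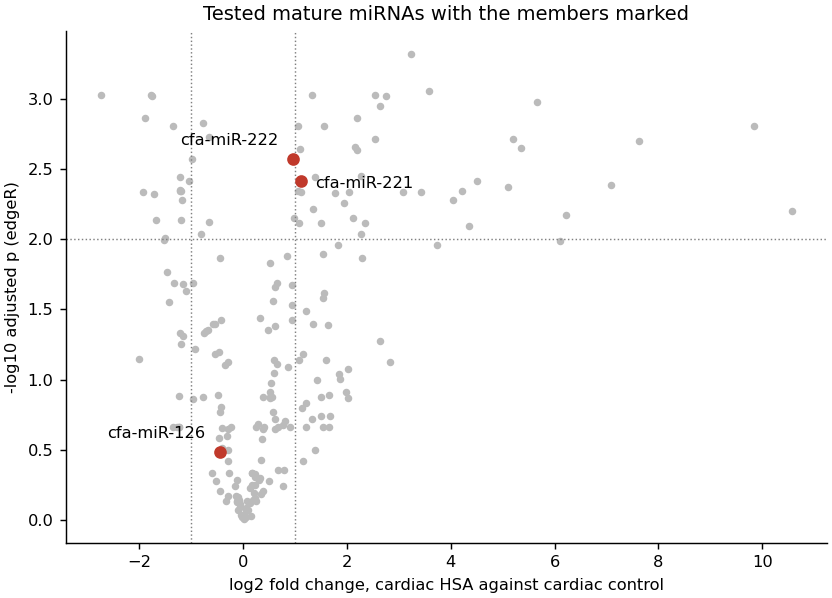
Log2 fold change, cardiac HSA against cardiac control (horizontal axis), and -log10 of the adjusted p from edgeR (vertical axis) for the 225 tested mature miRNAs (grey), with the members in red. Dotted lines mark the thresholds of 1 in log2 fold change and of 0.01 in adjusted p. MiR-221 and miR-222 lie beside each other at the fold threshold, and miR-126 lies low, at an adjusted p of 0.328.

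The muscle share did not line up with the 2 growth-linked miRNAs in every library. HSA replicate 1 had a muscle share within the control range and yet 731 CPM of miR-221 and 1270 CPM of miR-222, each above every control. HSA replicate 6, with the muscle share of a control, had control levels of both. The remaining HSA libraries had less muscle and more of both miRNAs. The summed share of the white blood cell miRNAs exceeded that of all controls in each of the 6 HSA libraries, replicate 6 included, but it did not follow the order of miR-221 among them. It was 0.0778%, 0.877%, 0.282%, 0.496%, 0.119% and 0.102% in HSA replicates 1 to 6, lowest in replicate 1, which had the second highest TMM-normalized miR-221. Like these shares, the deposited CPM carry no TMM factor, and there miR-221 was 696, 1075, 930, 742, 498 and 240. By that measure replicate 2 was highest in both, and replicate 1 was below replicates 2, 3 and 4 in miR-221. The part of either cell type in these results was not tested. HSA replicate 3, with its large share of miR-122, had the highest TMM-normalized CPM of miR-221 and of miR-222, and without it their log2 fold changes were 0.99 and 0.85.

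In the order of levels, miR-126 came first and miR-221 last in every control library, with miR-222 between them. MiR-126 held ranks 32 to 40 among the miRNAs of a control library, miR-222 ranks 58 to 63 and miR-221 ranks 71 to 81. In HSA, these ranges were 28 to 56, 48 to 59 and 58 to 77, so the range of miR-222 overlapped with those of both miR-126 and miR-221. Counts of different miRNAs also carry the efficiency of adapter ligation and were not corrected for it. Counting error was small beside the spread among dogs. The lowest count of any member was 1309, for miR-221 in control replicate 5, with an exact 95% Poisson interval of 1239 to 1382. This interval covers counting error only.

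Ratios of 2 members within a library need no scaling between libraries, so they compare the endothelial marker with the growth-linked pair directly. The balance shifted toward miR-221 and miR-222. The ratio of miR-221 to miR-126 was 0.0939, 0.109, 0.0603, 0.124, 0.0709 and 0.123 in control replicates 1 to 6, with a median of 0.101. In HSA replicates 1 to 6 it was 0.17, 0.377, 0.71, 0.715, 0.343 and 0.0788, with a median of 0.36. Of the HSA libraries, 5 lay above all controls and replicate 6 lay within their range. How many other tested miRNAs shift likewise against miR-126 was not computed. The log2 fold change of miR-126 was itself -0.79 relative to the median of all tested miRNAs, so such a shift need not be particular to this pair. The difference of the mean log2 ratios was 1.73 (standard error 0.53), a 3.31-fold shift (two-sided exact permutation test, p = 0.0173, adjusted over the 3 ratios 0.0325).

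The ratio of miR-222 to miR-126 moved the same way. It was 0.116 to 0.258 in control. In HSA replicates 1 to 6 it was 0.296, 0.72, 1.24, 1.32, 0.724 and 0.162. In HSA replicates 3 and 4, miR-222 thus had more counts than miR-126, which no control library showed. The difference of the mean log2 ratios was 1.58 (standard error 0.52), a 2.99-fold shift (two-sided exact permutation test, p = 0.0216, adjusted 0.0325). Both adjusted values rose to 0.0552 without control replicate 3, the control library with the most miR-126, where the differences were 1.6 and 1.43. Without HSA replicate 6 they were 2.12 and 1.95, with an adjusted p of 0.00325 for both in the exact test.

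**Figure D5:**
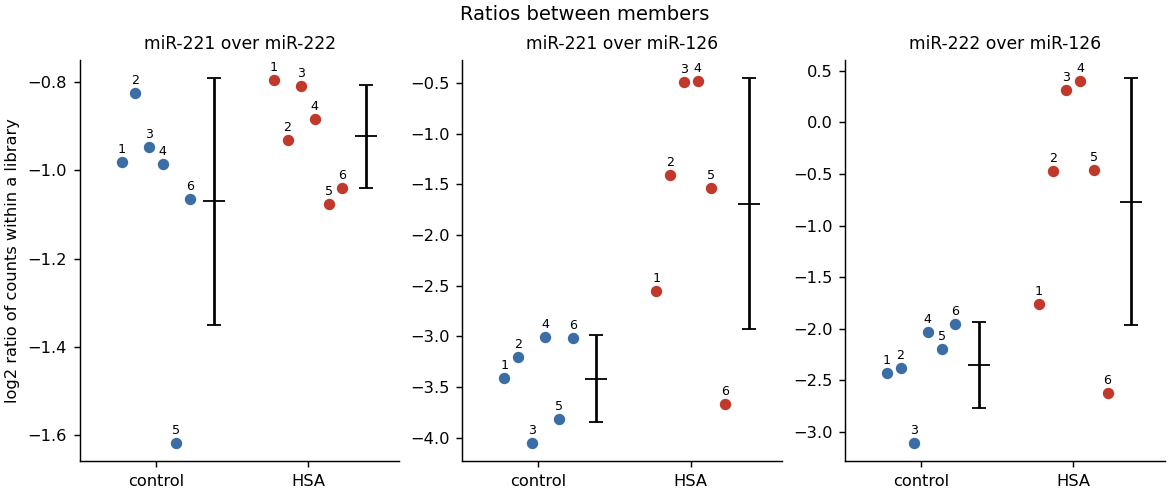
Log2 ratio of the counts of 2 members within each library (vertical axis), with replicate numbers above the points and the mean ± SD (n = 6) beside each group. The ratios to miR-126 lie above the controls in all HSA libraries but replicate 6, and the ratio of miR-221 to miR-222 overlaps between the groups, with control replicate 5 at -1.62.

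Within the pair, no shift was detected between the conditions. MiR-222 had more counts than miR-221 in all 12 libraries. The ratio of miR-221 to miR-222 was 0.474 to 0.576 in HSA and 0.478 to 0.564 in 5 of the control libraries, and it was 0.326 in control replicate 5. The means of the log2 ratio differed by 0.15 (standard error 0.12, two-sided exact permutation test, p = 0.277, adjusted 0.277). So the thresholds part miR-221 from miR-222, while no difference between their responses was detected.

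From dog to dog, miR-221 and miR-222 rose and fell together in HSA. Over the 6 HSA libraries, Pearson's r of their log2 CPM was 0.991 (exact permutation test, two-sided p = 0.00139, adjusted over 6 relations 0.00833) and Spearman's rho was 1.00 (p = 0.00278 in the exact test, adjusted 0.0167). Without HSA replicates 3 and 6, the farthest from the median of miR-221, r was 0.995. In the 6 control libraries, where miR-222 varied little, r was 0.309 (exact permutation p = 0.483, adjusted 0.58) and rho 0.371 (exact permutation p = 0.497, adjusted 0.658). Without control replicates 3 and 5, r was 0.651. On log2 CPM by library size only, added after seeing the data, the control values were r = 0.618 (exact permutation p = 0.189, adjusted 0.483) and rho = 0.886 (exact permutation p = 0.0333, adjusted 0.1). In HSA on that scale, r was 0.991 (exact permutation p = 0.00278, adjusted 0.0167) and rho was 0.943 (exact permutation p = 0.0167, adjusted 0.1). Whether the relation differs between the conditions was not tested.

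No such relation of miR-126 to the pair was detected. In HSA, its r was -0.403 with miR-221 and -0.487 with miR-222, with exact permutation p of 0.446 and 0.346 (adjusted 0.58 for both), and rho was -0.257 for both pairs (exact permutation p = 0.658, adjusted 0.658). Without HSA replicates 3 and 6, r turned to 0.452 and 0.367, so its sign rested on those libraries. In control, r of miR-126 was -0.781 with miR-222 (exact permutation p = 0.0875, adjusted 0.263, rho -0.829 with p = 0.0583, adjusted 0.175) and -0.805 without control replicates 3 and 6. With miR-221 it was -0.136 in control (exact permutation p = 0.756, adjusted 0.756, rho -0.429 with p = 0.419, adjusted 0.658) and -0.042 without control replicates 3 and 5. All 12 libraries share 1 scaling, which enters each of these values.

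The spread of the pair within HSA was modest for these libraries. The SD of the log2 CPM over HSA libraries was 0.46 for miR-222, 0.55 for miR-221 and 0.90 for miR-126, and the median over all tested miRNAs was 0.75. In control it was 0.15, 0.29 and 0.29, with a median of 0.30.

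Among the 224 other tested miRNAs, miR-222 was the one most like miR-221 over the 12 libraries, with r = 0.958, and it was also first after the mean of each condition had been subtracted, with r = 0.881. These correlations are a description over libraries that share a scaling. After miR-222, the patterns most like miR-221 were those of miR-362 (r = 0.904) and miR-660 (r = 0.902). For miR-222, miR-362 (r = 0.916) and miR-146a (r = 0.906) followed miR-221. With the condition means subtracted, miR-500 (r = 0.761) and miR-362 (r = 0.733) came next for miR-221, and miR-362 (r = 0.750) and miR-455 (r = 0.749) for miR-222.

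MiR-126 had other neighbors. Over the 12 libraries these were miR-22 (r = 0.897), miR-24 (r = 0.897) and miR-490 (r = 0.871), and with the condition means subtracted they were miR-24 (r = 0.924), miR-27a (r = 0.889) and miR-22 (r = 0.877). In the list ordered by likeness to miR-126, miR-221 held place 188 and miR-222 place 199 of 224.

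The members were set beside 30 other miRNAs linked to blood vessel growth, of which 28 were in the table and 27 tested. Of these 27, 8 (29.6%) were called higher and 0 lower, beside 18.7% called higher among all tested miRNAs, and their median log2 fold change was 0.52 beside 0.34 for all. In this edgeR fit, 9 of the 27 had negative fold changes. The called ones were miR-10a, miR-18a, miR-19a, miR-19b, miR-20a, miR-21, miR-132 and miR-155, and miR-155 is also on the white blood cell list. MiR-132, which VEGF induces in endothelial cells, was higher by 2.53 on the log2 scale (standard error 0.39, adjusted p = 0.000935 in edgeR).

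Other miRNAs of this list known from endothelium were not called and did not share a direction. MiR-210, which hypoxia induces, had 1.21 on the log2 scale (standard error 0.42, adjusted p = 0.0327 in edgeR), and miR-17, the first member of its cluster, 1.34 (standard error 0.49, adjusted p = 0.0404 in edgeR). Counts of miR-17 were low, at 5 to 31 in control and 13 to 77 in HSA. The row of miR-106a carries the same precursor name, mir-17, and had more, with mean CPM of 112 in HSA and 62.0 in control. Its log2 fold change was 0.85 (adjusted p = 0.0133 in edgeR). MiR-92a of the same cluster, a brake on vessel growth, had -0.30 (standard error 0.24, adjusted p = 0.316 in edgeR). The values were -0.49 for miR-130a, which represses antiangiogenic homeobox genes, and -1.21 for miR-378, with adjusted p of 0.13 and 0.0465 in edgeR. In the clusters of miR-23, miR-27 and miR-24, miR-23a had 0.61 and miR-27b -0.76, with adjusted p of 0.0417 and 0.0465. MiR-424 had 0.90, with an adjusted p of 0.216 in edgeR.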

How the data were processed

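Small RNA was sequenced from FFPE heart tissue of 6 dogs with HSA and 6 control dogs. Cutadapt (adapter trimming), Bowtie (alignment, build CanFam3.1) and HTSeq (counting over miRBase entries) were the tools of the authors. The deposited values are raw counts, 1 row for each pair of mature form and precursor, and CPM computed from those counts with no factor for composition. The labels name a QIAseq kit for all samples, whereas the methods name NEXTflex for heart. The methods name no molecular identifiers for heart, so amplified copies may be counted as reads. If they are, a Poisson interval of the counts is too narrow.

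Here, rows of 1 miRNA with identical counts were merged (517 rows became 474) and tested with edgeR 4.0.16 in R 4.3.3 (TMM factors from 0.769 to 0.889 in control and 0.948 to 1.97 in HSA, filterByExpr, quasi-likelihood F test, no covariate). For a miRNA with several rows, the row with the highest count is given. Percentages of counts are of the sum over 1 row per mature miRNA. The study had used DESeq2, run here as an alternative (1.42.0), as was limma 3.58.1. A standard error is the absolute log2 change divided by F's square root. Ratios and correlations used exact permutation tests over libraries in Python 3.11.15, ratios with a threshold of 0.05. Correlations used edgeR's log2 CPM with its default prior count.

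The members and lists were chosen with earlier results of these data known. Named miRNAs are the members, those with the most similar patterns, and markers set out in the lists. MiR-100, miR-199a, miR-199b and miR-296 were on a list but have no row under that name. No batch is named in the labels, and age and treatment were not covariates.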

Additional observations from a re-analysis of the deposited data

Results flagged for a closer look

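In 12 checks of 6 libraries each, 2 single libraries stood apart from their group by Dixon's ratio at its 95% critical value, and chance does this in about 1 of 20 groups. Control replicate 3 had 4213 CPM of miR-126, above the other controls (ratio 0.662). Control replicate 5 had a log2 ratio of miR-221 to miR-222 of -1.62, below the other controls (ratio 0.698), with 1309 counts of miR-221 and 4018 of miR-222.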

How the results depend on the processing

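Over the 13 alternative settings with all libraries and no replicate term, miR-221 was called in 13, and miR-126 kept a negative fold change in 12 and was 0.064 by library size only. MiR-222 passed the fold threshold in 5, with values of 1.56 by library size only, 1.24 with miR-8859a and miR-8859b, 1.0003 at a mean of 10 CPM, 1.52 with limma and 1.33 by library size without the muscle miRNAs. Leaving out 1 library at a time, fold changes on the log2 scale ran from -0.89 to -0.33 for miR-126, from 0.77 to 1.25 for miR-221 and from 0.63 to 1.08 for miR-222. The log2 ratios ran from 1.49 to 2.12 (miR-221 over miR-126), from 1.35 to 1.95 (miR-222 over miR-126) and from 0.038 to 0.20 (miR-221 over miR-222). As differences of medians, the ratios to miR-126 were 1.83 and 1.82, both with an adjusted p of 0.0617. The number of miRNAs called higher was 68 by library size only and 19 to 45 with 1 library left out. The number called lower was 22 with DESeq2, 5 by library size only, with limma and by library size without the muscle miRNAs, 3 with miR-8859a and miR-8859b, and 5 to 20 with 1 library left out. The correlation of miR-221 with miR-126 in control was 0.053 on log2 CPM by library size only, added after the data were seen. The cause of each change was not tested. The 12 libraries, 6 a group, and the wide spread among HSA dogs limit the precision for miR-126, and depth does not, since every member had at least 1309 counts.

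Replicate numbers do not pair the dogs. The deviations of same-numbered libraries correlated from -0.28 to 0.043, and 0 of 6 HSA libraries correlated best with its own number. With the number as a block, the log2 fold change was -0.68 for miR-126, 1.06 for miR-221 (adjusted p = 0.0287) and 0.91 for miR-222 (adjusted p = 0.0314), and 3 miRNAs were called higher and 3 lower. As pairs, the ratios of miR-221 and miR-222 to miR-126 differed by 1.73 and 1.58 (exact sign-flip permutation, p = 0.0625 for both, adjusted 0.0938).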
